A study of Mus musculus with 6 samples.

Results

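The genes described here are the enzymes of glycolysis together with the hypoxia-inducible factors (HIF), the proteins that degrade them and a set of their classical target genes. They were taken as a fixed list of 38 symbols, of which 37 were rows of the deposited count tables. Pkm was absent under that symbol and the same gene was present under its older symbol, Pkm2. The tables held 23337 gene symbols in all, and 35 of the 37 genes had enough counts to be tested. Of the remaining members, Egln3 and Eno1 were below the filter on low counts. RNA came from Tomato-positive mouse alveolar type II (AT2) cells, which make surfactant, sorted by flow cytometry 10 days after acute lung injury by Pseudomonas aeruginosa bacteria. The mutant genotype was SpC-CreER/Dlk1flox/ROSA-Tomato and the wild-type genotype SpC-CreER/ROSA-Tomato, with 3 libraries each. Both groups thus carried the tamoxifen-inducible Cre driven by the surfactant protein C promoter, the Tomato reporter and the bacterial injury, and they differed in the floxed Dlk1, a gene of the Delta-Notch family. The labels state neither the age nor the sex of the animals. One label adds 8 days of culture, and the labels do not settle if the sequenced cells had been cultured. The libraries are not stated to come from separate animals, so p-values measure only how far these samples spread, which may be technical.

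Glycolysis splits glucose into pyruvate in the cytosol, and pyruvate is then either reduced to lactate or carried into mitochondria and oxidised. HIF is a pair of proteins, an oxygen-regulated alpha subunit and the constant partner Arnt. When oxygen is plentiful, prolyl hydroxylases of the Egln family mark the alpha subunit and the Vhl protein then has it degraded, so HIF activity is set mainly by protein stability and not by transcript level. When oxygen falls, HIF binds a short core sequence in the DNA and raises genes for glucose uptake, glycolysis, mitophagy, collagen hydroxylation and vessel growth. AT2 cells are known for expressing Epas1, which encodes the alpha subunit HIF-2, and for making the vessel growth factor Vegfa. Transcripts were measured here, and neither oxygen, HIF protein nor metabolic flux was.

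The 6 libraries held 22511461 to 30695994 counts, and the AT2 gene Sftpc made up 45223 to 54195 normalised counts (CPM, scaled to the library total) in each. Dlk1 had at most 2 counts in any library, so its counts do not check which libraries carry the deletion. Mutant 1 stood apart from the other 5 libraries in markers of other cells. The sum of 7 club and goblet cell markers was 8773 CPM against 485 to 788 CPM in the others. For 5 pan-leukocyte markers it was 425 CPM against 5.49 to 23.9 CPM, for 8 endothelial markers 125 CPM against 5.8 to 10.7 CPM and for 7 fibroblast markers 214 CPM against 3.37 to 6.82 CPM. The sum of 8 proliferation markers ran from 38.7 to 75.2 CPM in the mutant and from 16 to 39.5 CPM in the wild-type libraries. The sum of 5 erythroid markers was 32.9 CPM against 0.079 to 0.918 CPM in the others, nearly all of it Alas2, while Hbb-b1, Hba-a1 and Hba-a2 were at 0 in all libraries. The part of these differences in the results was not tested, and results that rest on mutant 1 are given with and without it.

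Several glycolytic enzymes have transcripts that share much of their sequence with other genes. Many glycolytic genes have processed pseudogenes, intron-less copies inserted elsewhere in the genome. For each gene, the longest protein-coding transcript of the GENCODE vM21 annotation was divided into all its windows of 50 bases. The windows that also occur in a transcript of another gene, read on either strand, were counted. Genes overlapping on the opposite strand thus add to the share. The share was 82.5% for Gapdh, with 213 pseudogenes holding at least 1 of its windows. It was 72.2% for Eno1, 68% for Pgk1, 62.5% for Bnip3, 41.5% for Pgam1 and 34.4% for Pkm2. By contrast, 19 of the 37 genes shared under 1% of their windows, among them Hk2, Pfkl, Pfkm, Aldoc, Pdk1, Pfkfb4, Epas1, Vhl, P4ha1 and P4ha2.

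Eno1 encodes the common form of enolase, which makes phosphoenolpyruvate. It was listed with 0 counts in 5 libraries and 1 count in wild type 3. Its coding region differs from that of the retrogene Eno1b at 8 of 1305 bases, an identity of 99.39%. Pgam1, the next enzyme upstream, stood at 3.49 CPM per kb of transcript as the mean of 6 libraries, and Pgk1 at 11.1. Levels ranged widely among enzymes with little shared sequence. Among enzymes with under 20% of shared windows, Aldoa stood at 196, Ldha at 183 and Tpi1 at 67 CPM per kb, but Pfkm stood at 10.1, Pfkp at 2.67 and Eno2 at 0.579. Gapdh, with the most shared sequence, stood at 70.2 CPM per kb. The sources used here do not give how reads matching several places were counted, and its part in these levels was not tested. Comparisons of one of these genes between libraries use the same counting on both sides, but whether shared reads weighed equally in each library was not tested. The level of such a gene beside other genes is uncertain.

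**Figure D1:**
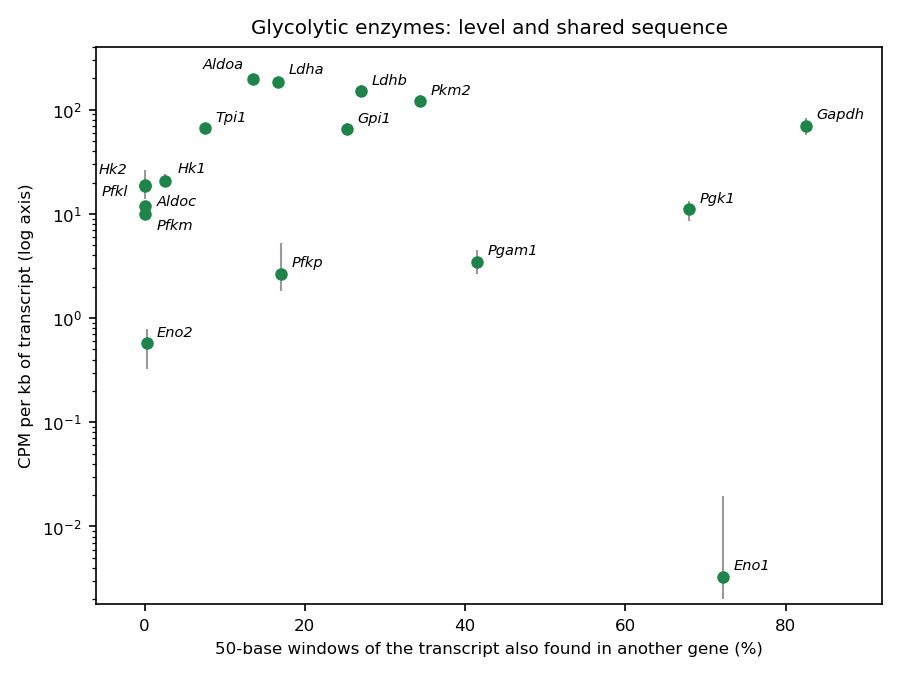
Each point is 1 of 17 glycolytic enzymes, with the share of its transcript's 50-base windows found in another gene on the horizontal axis (%) and its level on the vertical axis (CPM per kb, log axis), as the mean of 6 libraries with bars from the lowest to the highest. Eno1 sits at the bottom with 72.2% of windows shared, and its lowest library, at 0, is beyond the axis.

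Most of the pathway was present at substantial levels in both groups. Per kb of transcript, the highest member was Epas1 at 221 ± 15.6 CPM per kb (SD, n = 6), followed by Aldoa at 196 ± 15.1, Ldha at 183 ± 12.8, Ldhb at 152 ± 11.8 and Pkm2 at 121 ± 10.9. Epas1 was also first when the union of exons of its protein-coding transcripts was used as the length, but Aldoa then fell to the fourth place. Vegfa came next at 85.2 ± 9.13. At the other end, the hypoxia targets Adm, a vasodilator peptide, and Car9, a carbonic anhydrase widely used as a hypoxia marker, had 0.489 and 0.866 CPM per kb. Egln3, a prolyl hydroxylase whose own gene is a HIF target, had counts of 50, 0 and 3 across mutants 1 to 3 and 5, 5 and 5 across wild types 1 to 3. Outside mutant 1 it was thus at or close to the floor of 3 counts. Its highest library, mutant 1, stood at 0.612 CPM per kb. Adm, Car9 and Egln3 were thus low per kb in all 6 libraries, while Epas1 and Vegfa were abundant in all 6.

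**Figure D2:**
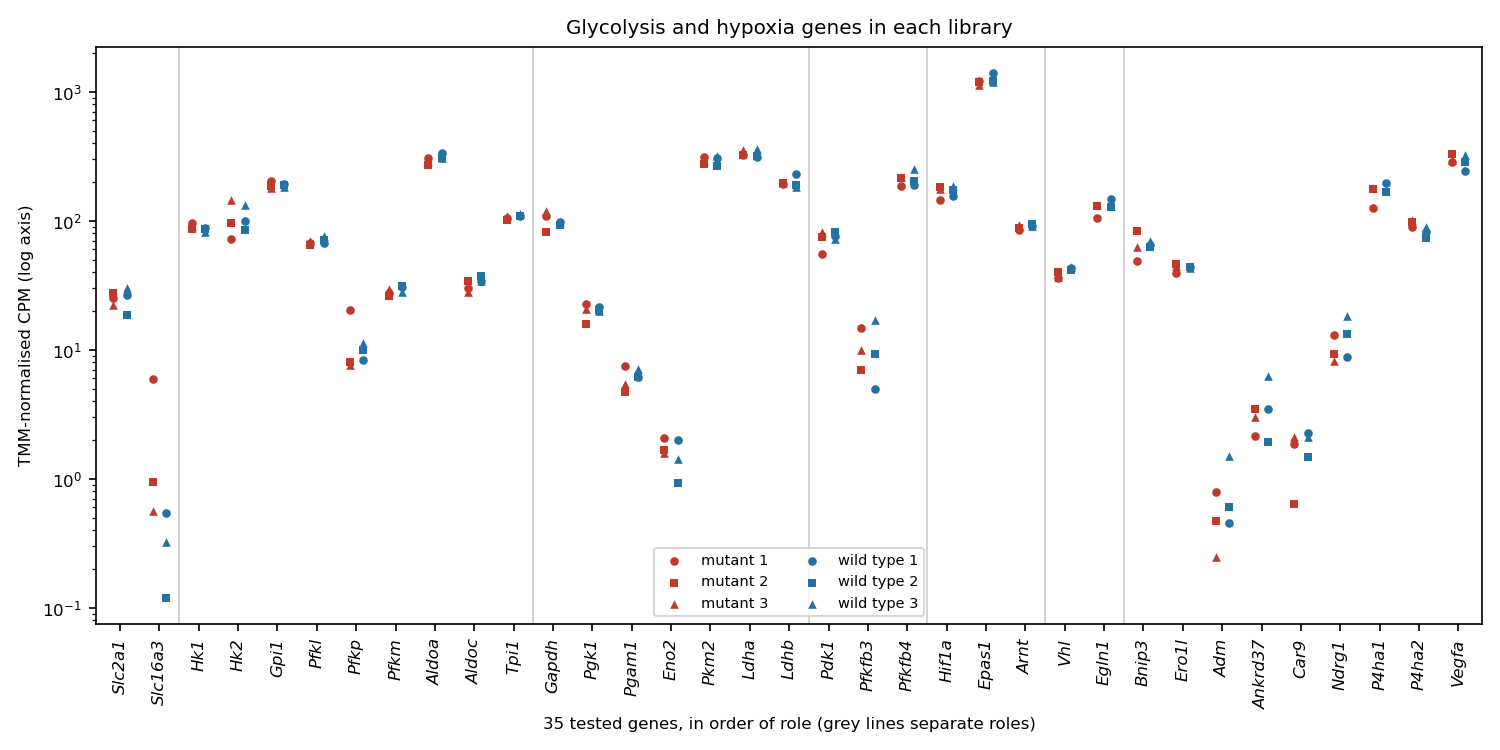
The 35 tested genes are on the horizontal axis and TMM-normalised CPM on the vertical (log axis), with red points for the 3 mutant and blue points for the 3 wild-type libraries and 1 symbol for each number. For most genes the red and blue points lie within the same narrow range, and Slc16a3 and Pfkp have 1 high point each, in mutant 1.

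The comparison of mutant with wild-type libraries asked whether cells targeted for Dlk1 deletion differ in these genes during repair. No member passed edgeR's quasi-likelihood test at a Benjamini-Hochberg adjusted p of 5%, and the lowest adjusted p among them was 0.737. The same test called 0 of 12899 genes (0.0%). At an unadjusted p under 0.05 it gave 2 of 35 members, Slc16a3 and P4ha2, against 6.58% of all tested genes. DESeq2 called 0 members as well, with the same pair of genes at an unadjusted p under 0.05, and it called 46 of all genes (0.3%), with 6.21% of all genes at an unadjusted p under 0.05. limma-voom with quality weights called 0, with 4 members at an unadjusted p under 0.05 (Aldoc, Vhl, Ndrg1 and P4ha2) against 10.0% of all genes. The 3 mutant and 3 wild-type libraries did not overlap in 5 of 35 members (14.3%), Aldoa, Tpi1, Vhl, Slc16a3 and P4ha2, and in 11.7% of all tested genes. These shares lie near the background.

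The 95% interval of the fold change lay within 1.5-fold in both directions for 25 of 35 members, and for 7519 of all 12899 tested genes. The log2 fold change was under 0.2 in size for 26 of 35 members and for 8423 of all tested genes. Log2 fold changes are given throughout as mutant minus wild type. Their standard errors (±) and 95% intervals were derived from the edgeR fold change and its F statistic. The log2 fold changes were negative in 26 and positive in 9 members, where 48.9% of all tested genes were negative. The number of negative members ran from 18 (limma-voom) to 28 (without wild type 2) over the other settings, and was 22 without mutant 1 and 19 without wild type 3. The median was -0.06 over the members and 0.00 over all tested genes. Without wild type 3 it was -0.02, and without mutant 1 it was -0.04. In bulk RNA, fewer cells of a type and less RNA per cell cannot be told apart.

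**Figure D3:**
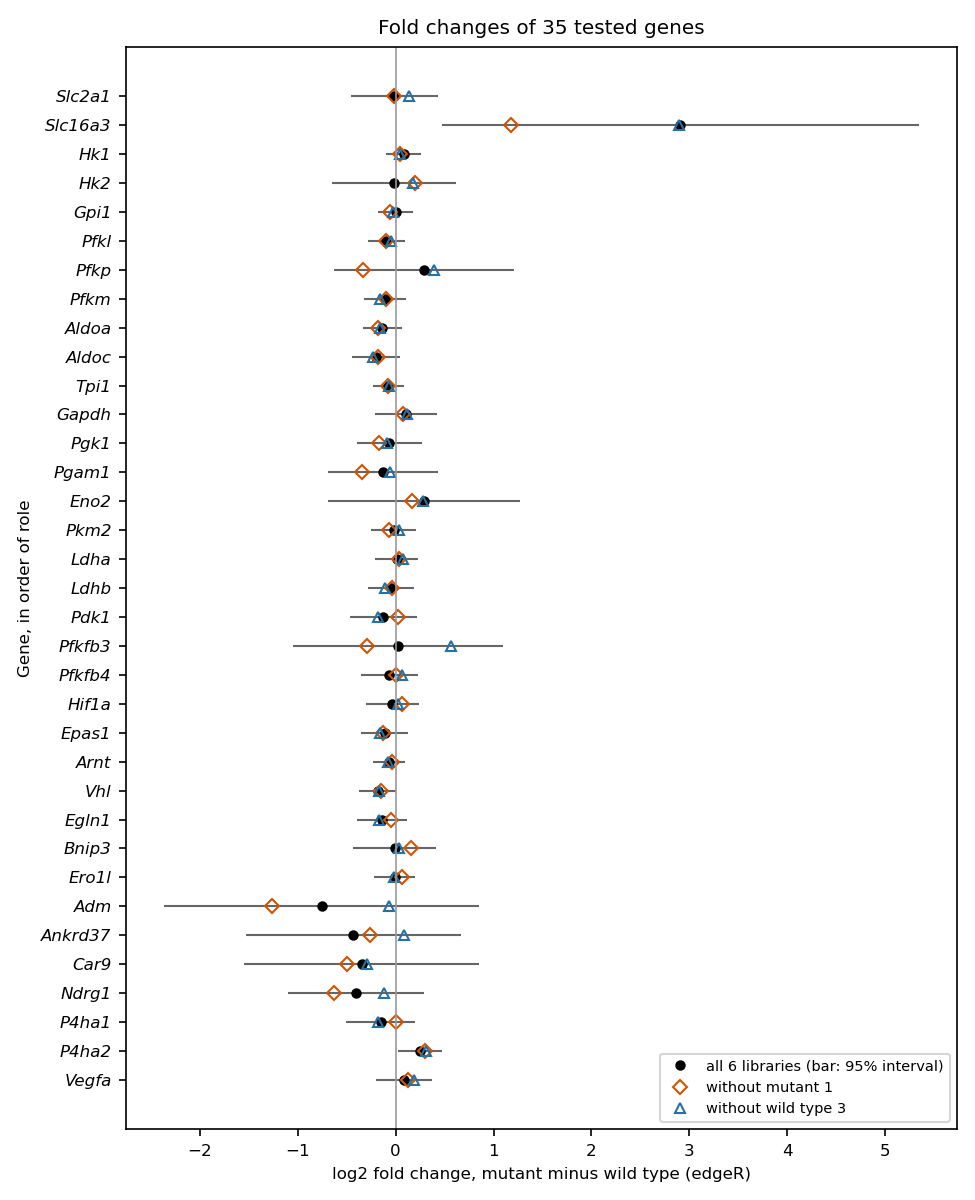
Log2 fold changes, mutant minus wild type, of the 35 tested genes with 95% intervals from edgeR (black), beside the values without mutant 1 (orange diamonds) and without wild type 3 (blue triangles). All intervals but those of Slc16a3 and P4ha2 include 0, and the largest shifts between settings are in Slc16a3, Pfkfb3, Pfkp, Adm and Ankrd37.

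Neither glucose uptake nor lactate export passed the test. Slc2a1, the basal glucose transporter GLUT1 and a HIF target, stood at 25.2, 27.6 and 22.1 CPM across mutants 1 to 3 and 26.7, 18.5 and 30.4 CPM across wild types 1 to 3. The lowest and the highest of these were both wild-type libraries, and the log2 fold change was -0.01 ± 0.19. Slc16a3 encodes MCT4, the exporter of lactate from strongly glycolytic cells, and had counts of 196, 22 and 16 across mutants 1 to 3 and 12, 3 and 8 across wild types 1 to 3. All 3 mutant libraries were above all 3 wild types, as in 5.23% of all tested genes. Mutant 3 (0.564 CPM) and wild type 1 (0.548 CPM) were nearly equal. However, 196 of these counts were in mutant 1, where club and goblet, leukocyte, endothelial and fibroblast markers and the erythroid gene Alas2 were also high. The other 5 libraries were between 3 and 22. Its log2 fold change was 2.91 ± 1.04 (edgeR adjusted p = 0.737), and 1.18 without mutant 1 (edgeR adjusted p = 0.838, with 0.303 to 0.996 over all alternatives). In these cells it was thus a rare transcript outside mutant 1, at most 0.94 CPM.

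The first steps of glycolysis had negative log2 fold changes in 7 of 9 tested genes, with none passing the test. Their summed level was 929.5, 872 and 946 CPM across mutants 1 to 3 and 965, 930.0 and 971 CPM across wild types 1 to 3. Mutant 3 lay within the wild-type range, mutant 1 just under it and mutant 2 lowest. The first step, which traps glucose as glucose 6-phosphate, is carried out by the hexokinases. Hk1, the housekeeping form, stood at 96.1, 85.8 and 90.5 CPM across mutants 1 to 3 and 88.5, 87.1 and 81.6 CPM across wild types 1 to 3, a log2 fold change of 0.08 ± 0.08. Hk2, the inducible form and a HIF target, was the more variable, at 72.3, 96.5 and 145 CPM across mutants 1 to 3 and 98.8, 85.6 and 133 CPM across wild types 1 to 3. Its lowest and highest libraries were both mutants, and its log2 fold change was -0.02 ± 0.27 with all libraries and 0.19 without mutant 1.

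Phosphofructokinase commits sugar to glycolysis and has 3 subunit genes, all measured here. Pfkl, the liver form, stood at 67.6, 64.5 and 69.2 CPM across mutants 1 to 3 and 67, 71.5 and 76.7 CPM across wild types 1 to 3. Pfkm, the muscle form, stood at 27.8, 26.3 and 29.6 CPM across mutants 1 to 3 and 30.7, 31.3 and 27.9 CPM across wild types 1 to 3. Their log2 fold changes were -0.10 ± 0.08 and -0.10 ± 0.09, each negative in all 17 other settings tried, with overlapping libraries. Pfkp, the platelet form, had 20.4, 7.99 and 7.61 CPM across mutants 1 to 3 and 8.31, 9.96 and 11.3 CPM across wild types 1 to 3, so mutant 1 was 1.81-fold above the next library. Its log2 fold change turned from 0.29 with all libraries to -0.34 without mutant 1. Gpi1, which converts glucose 6-phosphate to fructose 6-phosphate, stood at 203, 186 and 178 CPM across mutants 1 to 3 and 193, 189 and 184 CPM across wild types 1 to 3. It had the smallest log2 fold change in size of the 35 tested members, 0.00, with a 95% interval of -0.18 to 0.18.

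Aldolase, which cuts the sugar into a pair of smaller sugars, had a negative log2 fold change in both of its forms measured here, and neither passed the test. Aldoa, the most abundant form, stood at 307.4, 269.9 and 288.7 CPM across mutants 1 to 3 and 334.9, 308.0 and 309.4 CPM across wild types 1 to 3. All 3 mutants lay below all 3 wild types, with mutant 1 and wild type 2 only narrowly apart, and the log2 fold change was -0.14 ± 0.08 (edgeR adjusted p = 0.752). Aldoc stood at 29.9, 34.2 and 28.1 CPM across mutants 1 to 3 and 34.2, 37.5 and 34.2 CPM across wild types 1 to 3. Mutant 2 reached the level of wild types 1 and 3, and the log2 fold change was -0.20 ± 0.10. Tpi1, which interconverts the products of aldolase, also did not overlap between the groups, at 105.5, 100.6 and 108.7 CPM across mutants 1 to 3 and 109.1, 109.7 and 112.7 CPM across wild types 1 to 3. Mutant 3 and wild type 1 were nearly equal, and the log2 fold change was -0.08 ± 0.07. The mutant mean was 105 ± 4.06 CPM and the wild-type mean 111 ± 1.94 CPM (SD, n = 3 each).

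The later steps were evenly divided, with 3 of 7 tested genes positive and 4 negative, and none passed the test. Their summed level was 969, 896 and 989 CPM across mutants 1 to 3 and 976, 889 and 989.9 CPM across wild types 1 to 3, and the groups overlapped throughout. Gapdh, which makes the first high-energy phosphate of the pathway, stood at 109, 82.1 and 119 CPM across mutants 1 to 3 and 97.3, 92.3 and 97.3 CPM across wild types 1 to 3. Its libraries of highest and lowest level were both mutants, and the wild types lay between them (log2 fold change 0.11 ± 0.13). Pgk1, the next kinase, stood at 22.7, 15.9 and 20.8 CPM across mutants 1 to 3 and 21.6, 20.5 and 20.1 CPM across wild types 1 to 3. Pgam1, a mutase, stood at 7.52, 4.75 and 5.43 CPM across mutants 1 to 3 and 6.16, 6.12 and 7.08 CPM across wild types 1 to 3. Mutant 2 was the lowest library for all 3 of these genes, each of which shares over 40% of its windows with other genes. The same library was also lowest for Pfkl, Pfkm, Tpi1 and Aldoa, which share 0.05, 0.0, 7.51 and 13.53% of their windows. Eno2, the neuronal enolase, stood at 2.07, 1.67 and 1.59 CPM across mutants 1 to 3 and 2.01, 0.92 and 1.42 CPM across wild types 1 to 3, with overlapping groups and a log2 fold change of 0.29 ± 0.42.

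Pkm2, the symbol under which pyruvate kinase M was counted, makes pyruvate and stood at 313, 275 and 292 CPM across mutants 1 to 3 and 307, 266 and 317 CPM across wild types 1 to 3. Symbol-level counts do not separate its M1 and M2 splice forms. Ldha, the lactate dehydrogenase subunit that favours making lactate, stood at 323, 322 and 354 CPM across mutants 1 to 3 and 313, 316 and 362 CPM across wild types 1 to 3, and its 95% interval of the log2 fold change was -0.21 to 0.23. Ldhb, the subunit that favours using lactate, stood at 193, 195 and 196 CPM across mutants 1 to 3 and 229.8, 188 and 184 CPM across wild types 1 to 3, with an interval of -0.28 to 0.19. Wild type 1 was the highest library for Ldhb and the lowest for Ldha. These 3 abundant genes differed between the groups by less than the spread between libraries.

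None of the 3 regulators of glycolytic flux passed the test, and Pfkfb4 stood far above Pfkfb3, at 60.3 against 2.19 CPM per kb. These genes encode enzymes that set the level of the sugar phosphate that activates phosphofructokinase, and both are HIF targets. Pfkfb4 stood at 187, 214 and 217 CPM across mutants 1 to 3 and 191, 202 and 253 CPM across wild types 1 to 3, with wild type 3 the highest (log2 fold change -0.06 ± 0.12). Pfkfb3 ranged widely within both groups, at 14.7, 6.97 and 9.94 CPM across mutants 1 to 3 and 4.98, 9.2 and 16.9 CPM across wild types 1 to 3. Its log2 fold change was 0.03 with all libraries, -0.29 without mutant 1 and 0.57 without wild type 3, and it passed the threshold in none of the settings. Pdk1, the kinase that closes pyruvate dehydrogenase and so keeps pyruvate out of the mitochondrial cycle, stood at 55.6, 75.3 and 81.4 CPM across mutants 1 to 3 and 76.7, 82.6 and 72.4 CPM across wild types 1 to 3. Mutant 1 was the low library and the other 5 overlapped, with log2 fold changes of -0.13 ± 0.14 and, without mutant 1, 0.02.

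The proportions of related enzymes were set side by side as shares of CPM per kb. Such shares do not depend on library scaling, but they do depend on the transcript length used. Hk2 made up 36.9, 46.6 and 55.5% across mutants 1 to 3 and 46.4, 43.3 and 55.8% across wild types 1 to 3 of hexokinase 1 and 2 together. It ranged from 36.9% in mutant 1 to 55.8% in wild type 3. Pfkl was the main phosphofructokinase subunit in all 6 libraries, at 55.4 to 62.3%. Aldoc made up 5.13 to 6.58% of aldolase A and C, or 7.73 to 9.85% with the union of exons as the length. Ldhb made up 41.5 to 50.5% of lactate dehydrogenase A and B, and Pfkfb3 1.86 to 5.41% of Pfkfb3 and Pfkfb4. The groups overlapped in all of these shares.

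Among the HIF subunits, Epas1 stood highest per kb, and none of the 3 passed the test. Epas1 (HIF-2 alpha) stood at 1203, 1191 and 1126 CPM across mutants 1 to 3 and 1394, 1219.7 and 1182 CPM across wild types 1 to 3, with wild type 1 the highest, and its log2 fold change was -0.11 ± 0.10 (95% interval -0.35 to 0.13). Hif1a (HIF-1 alpha), the form found in nearly all tissues, stood at 146, 182 and 178 CPM across mutants 1 to 3 and 156, 174 and 187 CPM across wild types 1 to 3. The groups overlapped, with a log2 fold change of -0.03 ± 0.11. Hif1a made up 12.4, 15.1 and 15.6% across mutants 1 to 3 and 11.5, 14.3 and 15.6% across wild types 1 to 3 of both alpha transcripts per kb, with overlapping groups. With the union of exons as the length, the share of Hif1a ran from 10.15 to 13.83%. Arnt, the shared partner subunit, stood at 84.8, 87.4 and 93 CPM across mutants 1 to 3 and 91.9, 94.4 and 90.8 CPM across wild types 1 to 3. Its highest library was 1.11 times its lowest, the smallest such ratio of the tested members (log2 fold change -0.06 ± 0.07).

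The genes that degrade HIF had negative log2 fold changes in both tested members. Vhl, the substrate receptor of the ubiquitin ligase that destroys hydroxylated HIF, stood at 36.3, 40.3 and 37 CPM across mutants 1 to 3 and 43.4, 41.5 and 43.9 CPM across wild types 1 to 3. All 3 mutants lay below all 3 wild types, with a mean of 37.8 ± 2.14 CPM against 42.9 ± 1.28 CPM (SD, n = 3 each). The log2 fold change was -0.18 ± 0.08 with a 95% interval of -0.37 to 0.01, and it did not pass the test (edgeR adjusted p = 0.737). It was negative in every setting tried, at -0.15 without mutant 1. All 3 mutant libraries were lower in 6.43% of all tested genes. Egln1, the main prolyl hydroxylase that senses oxygen, stood at 106, 129 and 132 CPM across mutants 1 to 3 and 147, 129 and 129 CPM across wild types 1 to 3, where mutants 2 and 3 fell within the wild-type range and mutant 1 was the lowest. Its log2 fold change was -0.14 ± 0.11, and -0.04 without mutant 1.

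The collagen prolyl 4-hydroxylases P4ha1 and P4ha2, which use oxygen to stabilise collagen and are both HIF targets, had log2 fold changes of opposite sign, and neither passed the test. P4ha2 stood at 89.4, 98.3 and 102 CPM across mutants 1 to 3 and 81.7, 73.1 and 88.8 CPM across wild types 1 to 3, so every mutant was above every wild type, with mutant 1 and wild type 3 nearly equal. The means were 96.5 ± 6.42 and 81.2 ± 7.86 CPM (SD, n = 3 each), and the log2 fold change was 0.25 ± 0.10 with a 95% interval of 0.02 to 0.47 (edgeR adjusted p = 0.737). It was 0.30 without mutant 1 and 0.31 without wild type 3, but 0.21 without mutant 3 and 0.17 without wild type 2. Its unadjusted edgeR p was not under 0.05 without mutant 2, mutant 3, wild type 1 or wild type 2. P4ha1 stood at 125, 176 and 180.4 CPM across mutants 1 to 3 and 197, 167 and 171 CPM across wild types 1 to 3, with mutant 1 the lowest and a log2 fold change of -0.15 ± 0.15, or 0.00 without mutant 1. Per kb, P4ha2 made up 56, 49.9 and 50.2% across mutants 1 to 3 and 42.5, 44 and 48.1% across wild types 1 to 3 of the pair. Unlike the shares within the other enzyme families, this share did not overlap between the groups, and its highest value was in mutant 1. Of all tested genes, 11.7% did not overlap between the groups, and 3 against 3 libraries cannot give an exact two-sided permutation p below 0.1.

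**Figure D4:**
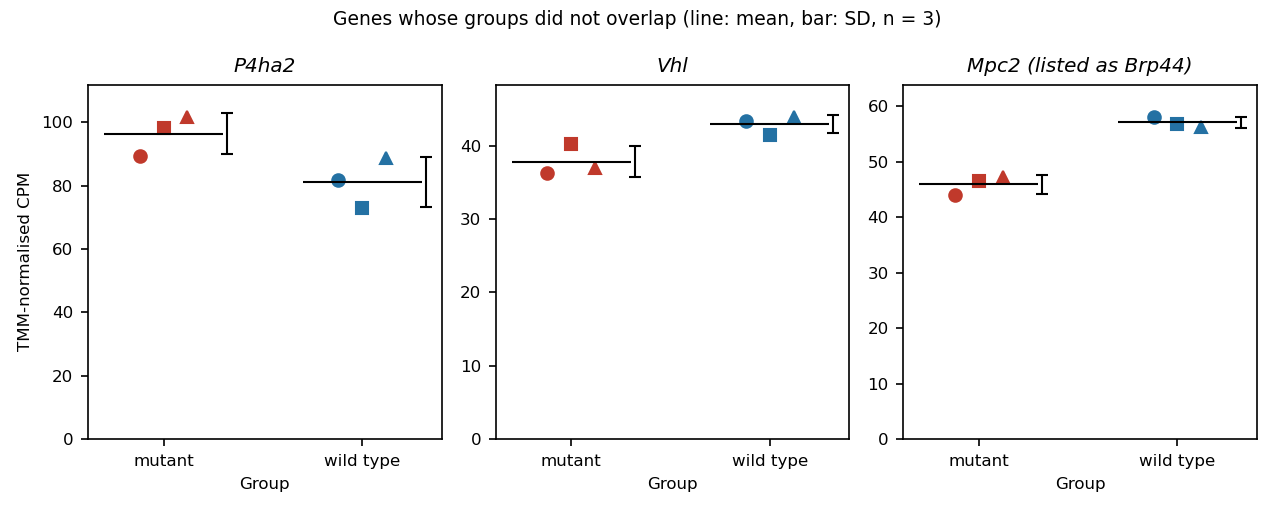
TMM-normalised CPM (axis from 0) of P4ha2, Vhl and Mpc2 in the 3 mutant (red) and 3 wild-type (blue) libraries, with 1 symbol for each number, the mean (line) and the SD (bar). The groups do not overlap in any of these genes, and the gap is narrowest in P4ha2.

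Promoter sequence is shown for 4 members whose levels bear on the results. These are the P4ha pair, of opposite signs with all libraries, and Ldha and Bnip3 as an abundant and a library-dependent target. Without mutant 1 the log2 fold change of P4ha1 was -0.00076. The sequences are the 150 bases before the start site, 5′ to 3′ on the gene's strand, from RefSeq on GRCm38.p6, and capitals mark the HIF core, ACGTG or GCGTG on either strand (CACGT and CACGC when read on the other strand). P4ha2 is at chr11:54100774-54100923 (plus strand), P4ha1 at chr10:59323146-59323295 (plus), Ldha at chr7:46845654-46845803 (plus) and Bnip3 at chr7:138909507-138909656 (minus). The counts themselves were made on an older build, mm9.
P4ha2: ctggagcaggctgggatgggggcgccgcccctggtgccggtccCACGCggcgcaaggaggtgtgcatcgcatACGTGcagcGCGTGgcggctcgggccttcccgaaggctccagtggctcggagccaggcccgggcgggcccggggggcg
P4ha1: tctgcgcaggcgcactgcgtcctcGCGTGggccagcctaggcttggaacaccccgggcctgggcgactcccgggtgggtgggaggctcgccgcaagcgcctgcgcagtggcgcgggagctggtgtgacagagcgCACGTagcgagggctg
Ldha: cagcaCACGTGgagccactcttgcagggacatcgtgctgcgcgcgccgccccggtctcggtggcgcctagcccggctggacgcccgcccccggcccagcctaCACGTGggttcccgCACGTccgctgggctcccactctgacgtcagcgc
Bnip3: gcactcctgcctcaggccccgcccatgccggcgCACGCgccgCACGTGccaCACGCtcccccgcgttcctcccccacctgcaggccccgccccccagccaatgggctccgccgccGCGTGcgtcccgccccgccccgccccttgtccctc

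The stretches held 3 core matches for P4ha2, 2 for P4ha1 and 5 each for Ldha and Bnip3, where overlapping matches on opposite strands are counted separately. Such overlaps form CACGTG, the E-box read by other factors such as Myc and Usf, in both Ldha and Bnip3. RefSeq windows from 250 bases before to 50 after a start site were matched for 35 of the 37 genes. Epas1 and Ndrg1 had none. At least 1 core match was present for 31 of these 35 genes (88.6%) and for 46.7% of all genes with a window. Counted by window, it was 39 of 49 (79.6%) for the members and 43.8% for all 32851 windows. Member windows were richer in CpG, with a median of 20 CpG dinucleotides against 7, and of all windows with at least 20 CpG 73.6% held the core. The members' 79.6% includes windows of any CpG count, so these shares are not like for like. These matches are letters in a window and were not measured as binding.

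Other HIF targets showed no group difference beyond the spread between libraries. Vegfa, the vessel growth factor, stood at 286, 328 and 294 CPM across mutants 1 to 3 and 245, 285 and 325 CPM across wild types 1 to 3, and its log2 fold change was 0.09 ± 0.12 with a 95% interval of -0.20 to 0.37. Bnip3, a mitophagy receptor that shares 62.5% of its windows with other genes, stood at 49.1, 83.7 and 63 CPM across mutants 1 to 3 and 64.7, 62.7 and 69.5 CPM across wild types 1 to 3. Its lowest library was mutant 1 and its highest mutant 2, and the log2 fold change of -0.01 ± 0.18 became 0.16 without mutant 1. Ero1l, the oxidase of disulfide formation in the endoplasmic reticulum, stood at 39.1, 46.3 and 44.7 CPM across mutants 1 to 3 and 43.5, 44 and 43.4 CPM across wild types 1 to 3. Mutant 1 was the lowest, and the log2 fold change was -0.01 ± 0.09. Ndrg1, a stress-response gene strongly induced by hypoxia in many cell types, stood at 13, 9.28 and 8.17 CPM across mutants 1 to 3 and 8.77, 13.2 and 18.3 CPM across wild types 1 to 3. Mutants 2 and 3 were near wild type 1, and wild type 3 was the highest.

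Ndrg1 had a log2 fold change of -0.41 ± 0.30, which was -0.62 without mutant 1 and -0.12 without wild type 3. Ankrd37, a small ankyrin-repeat gene, stood at 2.16, 3.46 and 2.99 CPM across mutants 1 to 3 and 3.47, 1.92 and 6.22 CPM across wild types 1 to 3, with a log2 fold change of -0.43 ± 0.47 that turned to 0.09 without wild type 3. Adm had counts of 26, 11 and 7 across mutants 1 to 3 and 10, 15 and 37 across wild types 1 to 3. Its value of -0.75 ± 0.68 became -0.07 without wild type 3, which held the highest count. Car9 had counts of 61, 15 and 60 across mutants 1 to 3 and 50, 37 and 52 across wild types 1 to 3, with mutant 2 the low library, and differed by -0.34 ± 0.51. None of these genes passed the test.

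Single libraries held the extreme values of many of these genes. Wild type 3 held the highest value in 12 of 35 members (34.3%), against 14.0% of all tested genes. These were Slc2a1, Pfkl, Tpi1, Pkm2, Ldha, Pfkfb3, Pfkfb4, Hif1a, Vhl, Adm, Ankrd37 and Ndrg1, a set that includes glucose uptake, both Pfkfb genes and 3 hypoxia targets. Mutant 1 held the lowest value in 10 members (28.6%), against 21.2% of all tested genes: Hk2, Pdk1, Pfkfb4, Hif1a, Arnt, Vhl, Egln1, Bnip3, Ero1l and P4ha1. The AT2 marker sum was also lowest there, at 0.881 times the mean of the others, and its part was not tested. Mutant 2 was lowest in 8 members (22.9%), near the 21.1% of all tested genes. All but Car9 of these were glycolytic enzymes. It was highest in Bnip3, Ero1l and Vegfa. As the median log2 ratio to the mean of the other 5 libraries (CPM + 1), the 9 other hypoxia targets stood at -0.05, 0.06 and 0.00 across mutants 1 to 3 and -0.02, -0.07 and 0.18 across wild types 1 to 3, and the 9 early glycolytic genes at -0.04, -0.12 and 0.00 across mutants 1 to 3 and 0.02, 0.03 and 0.05 across wild types 1 to 3.

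**Figure D5:**
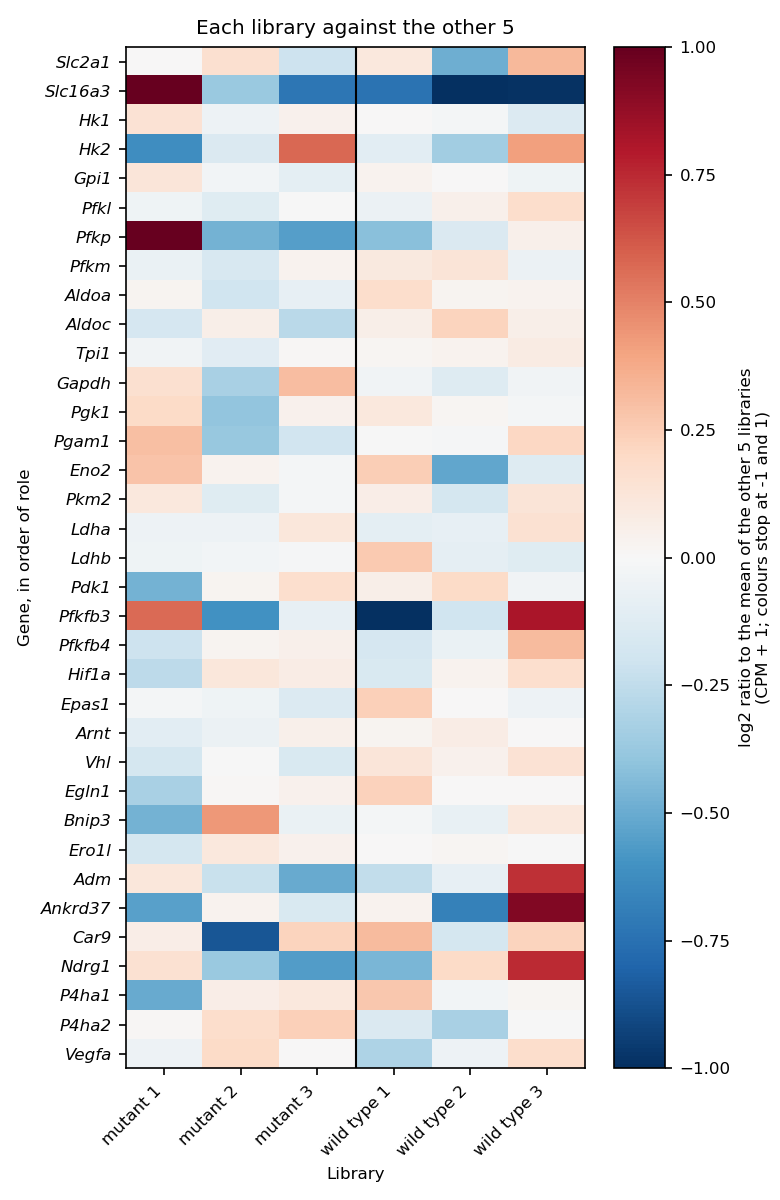
Log2 ratio of each library to the mean of the other 5 (CPM + 1; red higher, blue lower, colours stopping at -1 and 1) for the 35 tested genes in order of role, with a line between mutant and wild-type libraries. Wild type 3 is red for Pfkfb3, Adm, Ankrd37 and Ndrg1, and mutant 1 is deepest red for Slc16a3 and Pfkp and blue for Hk2, Pdk1, Bnip3 and P4ha1.

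Genes around the pathway were taken from 4 further lists, and no member of them passed edgeR's test either. Of 28 other genes of glucose metabolism, 18 had positive and 10 negative values (median log2 fold change 0.03). Of 13 genes of pyruvate entry into mitochondria 5 were positive and 8 negative (median -0.07), of 18 other HIF pathway components 9 and 9 (median 0.00), and of 36 other hypoxia response genes 18 and 18 (median -0.02). At an unadjusted p under 0.05 the counts were 2, 1, 1 and 3, against 6.58% of all tested genes. The 3 mutant and 3 wild-type libraries did not overlap in 1, 1, 1 and 4 genes, against 11.7% of all tested genes. The genes described below had the smallest p of each list.

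The pyruvate list was led by Mpc2, listed under its older symbol Brp44, which encodes a subunit of the carrier that brings pyruvate into mitochondria. It stood at 44, 46.5 and 47.3 CPM across mutants 1 to 3 and 58.1, 56.9 and 56.3 CPM across wild types 1 to 3, so the mutant libraries were all lower, by a wider gap than in any of the non-overlapping members. The means were 45.9 ± 1.68 and 57.1 ± 0.948 CPM (SD, n = 3 each), and the log2 fold change was -0.31 ± 0.07 (edgeR adjusted p = 0.737). It was -0.28 without mutant 1. Dlat, Pdk3 and Pdhx, subunits and a kinase of the pyruvate dehydrogenase complex, came next in that list with log2 fold changes of -0.15, 0.10 and 0.10 and overlapping libraries.

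In the glucose metabolism list, Gys1, the muscle-type glycogen synthase, stood at 98.9, 110.0 and 107 CPM across mutants 1 to 3 and 91.9, 93.1 and 88.7 CPM across wild types 1 to 3, with all mutants higher and a log2 fold change of 0.21 ± 0.07. Slc2a3, the high-affinity glucose transporter GLUT3 of neurons and leukocytes, stood at 9.05, 2.91 and 3.63 CPM across mutants 1 to 3 and 1.42, 1.0 and 3.13 CPM across wild types 1 to 3. It was highest in mutant 1, and its log2 fold change of 1.49 was 0.82 without that library. Slc2a12, a further glucose transporter, and G6pdx, of the pentose phosphate pathway, followed at 1.46 and -0.18, and Slc2a12 was 0.21 without mutant 1. Among HIF pathway components, Siah1a, a ubiquitin ligase that acts on the prolyl hydroxylases, was lower in all mutants at 22.3, 29.1 and 27.6 CPM across mutants 1 to 3 and 31.8, 36.5 and 33.4 CPM across wild types 1 to 3, a log2 fold change of -0.36 ± 0.12, or -0.26 without mutant 1. Hif3a, Hif1an and Tceb2 followed at 0.78, 0.13 and -0.14.

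In the hypoxia response list, Nrn1, a neuritin gene, stood at 56.4, 86.7 and 97 CPM across mutants 1 to 3 and 135, 109 and 220.0 CPM across wild types 1 to 3. All mutants were lower, wild type 3 was again the highest, and the log2 fold change was -0.95 ± 0.30, or -0.75 without mutant 1. Bhlhe41, a transcriptional repressor, stood at 6.67, 2.99 and 6.76 CPM across mutants 1 to 3 and 2.01, 2.2 and 3.5 CPM across wild types 1 to 3 and differed by 1.09. Kdr, the VEGF receptor of endothelial cells and also one of the endothelial markers used, was at 21.2 CPM in mutant 1, where endothelial markers were high, and at most 1.92 CPM elsewhere. Its log2 fold change was 2.84 with all libraries and 0.56 without mutant 1. Mt2, a metallothionein, differed by 0.65 with overlapping libraries.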

How the data were processed

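RNA-seq counts of 3 mutant and 3 wild-type libraries were used, grouped by sample title. The authors deposited 1 table per library of raw, whole-number counts for each gene symbol. Per the labels' protocols, libraries were made with a TruSeq mRNA kit and sequenced together on 1 flow cell. The labels disagree on the sequencing instrument, and which was used was not settled. The submitters' processing notes name the build mm9 and the tools CASAVA and DESeq2. The sources used here do not give the aligner, counting program, annotation, strand or handling of multiply mapped reads.

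The members and lists were chosen with earlier results of these data known. Genes passing filterByExpr (12899) were scaled by TMM and tested over the whole table with edgeR 4.0.16 (R 4.3.3; quasi-likelihood F-test, two-sided, Benjamini-Hochberg, 5%). The procedure was tested on simulated data. CPM are TMM-normalised except for marker sums, Sftpc and values per kb, which use library totals. Totals of 22511461 to 30695994 put the 3-count floor at 0.0977 to 0.133 CPM, covering counting error only. All members were accounted for, and the 12 with the smallest p and the leading genes of each role were given in depth, as were up to 4 genes of each further list. Of symbols in the further lists and markers, 8 were matched through RefSeq synonyms. Replicates within a group differed beyond sampling noise (chi-square per degree of freedom 18.4 to 76.7). Same-numbered mutant and wild-type deviations correlated at 0.312, 0.211 and 0.169, each over 0.1, so the numbers were treated as paired in a blocked alternative. That pairing comes from the data alone. Alternatives were other scalings and filters, DESeq2 1.42.0, limma-voom (limma 3.58.1), robust dispersion, the block, and leaving out each library. A further 3, chosen after seeing the data, left out mutant 1 with DESeq2, with the block, or together with wild type 3.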

Additional observations from a re-analysis of the deposited data

How the results depend on the processing

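No member passed the threshold in any of the 17 alternatives, where the lowest adjusted p of a member was 0.303 (Slc16a3, DESeq2). The replicate block called 0 genes and 0 members and changed no call. Over all genes, 0 calls became 46 with DESeq2, 22 with DESeq2 without mutant 1, 8 with the block without mutant 1, 2 without mutant 1 and wild type 3, and 0 to 1 when 1 library was left out (1 without wild type 3). The members' median log2 fold change of -0.06 moved to -0.0193 with limma-voom, to -0.0276 without mutant 1 and wild type 3, and over -0.0841 to -0.022 when 1 library was left out (highest without wild type 3). The sign held in every setting for 14 members and turned in at least 1 for the other 21. In these lists each value is the log2 fold change of the gene after its sign turned. With limma-voom these were Slc2a1 0.0835, Hk2 0.31, Pfkp -0.15, Pkm2 0.0282, Ldhb 0.00616, Pfkfb4 0.00997, Hif1a 0.00785, Bnip3 0.00119, Ero1l 0.0133, Ankrd37 0.0494. With DESeq2 without mutant 1 they were Hk2 0.196, Pfkp -0.334, Pdk1 0.0254, Pfkfb3 -0.29, Pfkfb4 0.00572, Hif1a 0.0649, Bnip3 0.164, Ero1l 0.0648, P4ha1 0.00303. With the replicate block they were Slc2a1 0.00839, and with the block without mutant 1 Slc2a1 0.0552, Hk2 0.15, Pfkp -0.443, Ldha -0.00319, Ldhb 0.0719, Pdk1 0.0182, Pfkfb3 -0.589, Egln1 0.0189, Bnip3 0.137, Ero1l 0.0586, P4ha1 0.0769. With DESeq2 size factors the turned value was Gpi1 0.00372, with upper-quartile factors Gpi1 0.00867, and with at least 1 CPM in 3 libraries Gpi1 0.0109, Bnip3 0.000799, Ero1l 0.00164. With 1 library, or both mutant 1 and wild type 3, left out, the ranges of members that turned were Slc2a1 -0.197 to 0.141, Hk2 -0.325 to 0.394, Gpi1 -0.0696 to 0.0382, Pfkp -0.336 to 0.528, Gapdh -0.00228 to 0.247, Pgk1 -0.194 to 0.0681, Pgam1 -0.342 to 0.000237, Pkm2 -0.0931 to 0.0315, Ldha -0.0367 to 0.106, Ldhb -0.105 to 0.0635, Pdk1 -0.24 to 0.0218, Pfkfb3 -0.307 to 0.567, Pfkfb4 -0.143 to 0.135, Hif1a -0.102 to 0.128, Bnip3 -0.232 to 0.205, Ero1l -0.0634 to 0.0614, Ankrd37 -0.758 to 0.265, Car9 -0.641 to 0.0158, Vegfa -0.013 to 0.232. The cause was not tested. The widest 95% intervals were those of Slc16a3, Adm, Car9, Ankrd37, Pfkfb3 and Eno2, and the parts of depth and of spread between libraries in them were not tested. Egln3 and Eno1 had too few counts to be tested. The parts of depth and of the counting of reads matching several places in this were not tested.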

Other observations

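The gluconeogenic enzymes Fbp1 and Fbp2, which reverse the phosphofructokinase step and were on the list of other glucose metabolism genes, were high in 3 libraries and low in the other 3, across the groups. They were singled out after their values were seen. Fbp1 stood at 0.822, 10.6 and 11.9 CPM across mutants 1 to 3 and 17.7, 1.24 and 1.06 CPM across wild types 1 to 3, and Fbp2 at 2.56, 36.3 and 35 CPM across mutants 1 to 3 and 43.3, 5.36 and 3.38 CPM across wild types 1 to 3. The high libraries were mutants 2 and 3 and wild type 1, and both genes split the libraries in the same way. The edgeR adjusted p between the groups was 0.974 for Fbp1 and 0.929 for Fbp2 with all libraries, and 0.00793 and 0.0034 in the fit with the replicate block without mutant 1, where 2 pairs remain. Over the other settings it ran from 0.586 to 0.996 for Fbp1 and from 0.564 to 0.997 for Fbp2. The genes are neighbours in RefSeq, which lists each symbol as an older name of the other, so which of them a symbol stood for in these tables was not settled.

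Gm5506, the older symbol of the Eno1 retrogene Eno1b, had 43 counts in wild type 1, 29 in wild type 2 and 0 in the other 4 libraries, while Eno1 itself was listed at 0 or 1 count in all 6.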
